A study of Homo sapiens with 8 samples.

Results

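The genes described are the human glycosyltransferases and carbohydrate sulfotransferases that carry 1 of 15 family names (GALNT, B3GNT, B3GALT, B4GALT, B4GALNT, ST3GAL, ST6GAL, ST6GALNAC, ST8SIA, MGAT, FUT, GCNT, CHST, HS3ST and HS6ST) followed by a number. Of 113 protein-coding genes with such a symbol, 65 had a mean of at least 10 normalized counts over all libraries and make up the set, out of 17194 genes tested. Of these, 53 are glycosyltransferases and 12, the CHST, HS3ST and HS6ST genes, transfer sulfate and not a sugar. The cells were C4-2, a line of castration-resistant prostate cancer that was derived from LNCaP, grown in RPMI medium with serum. They received either 1 µM DTHIB (also called E12), a compound that the labels describe as acting directly on HSF1, the transcription factor of the heat shock response, or the DMSO solvent alone, and were harvested after 48 h. Each group had 4 poly(A)-enriched RNA-seq libraries of this 1 cell line, and the comparison asks which transcripts differ under the inhibitor.

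Most secreted and surface proteins, and many lipids, leave the Golgi apparatus with sugar chains that are built 1 residue at a time by membrane-bound enzymes. Each enzyme recognises a growing chain and moves 1 kind of sugar, or a sulfate group, from an activated donor onto it, so the set of enzymes a cell makes shapes the chains on its surface. In prostate epithelium, mucin-type O-glycans, sialic acid caps and blood group or Lewis fucose epitopes have long been studied for their differences between normal gland and carcinoma.

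The 2 members with the largest changes in opposite directions among those with a mean of at least 100 normalized counts belong to 1 family, the fucosyltransferases, and the sequence before the start site is shown for both. FUT1 (minus strand, GRCh38.p14, chr19:48755391-48755558) and FUT4 (plus strand, chr11:94543671-94543839) are given 5′ to 3′ from RefSeq, as a stretch of a promoter window that lies outside annotated exons. A pattern was chosen for each gene, and the longest such stretch with a match to it is shown. The marked match is therefore present by choice. Capitals mark the 1 match that each stretch holds among the patterns searched: in FUT1 to TGATGNAAT, the composite element bound by ATF4, and in FUT4 to the reverse complement of ACGTGC, a hypoxia element core.
FUT1: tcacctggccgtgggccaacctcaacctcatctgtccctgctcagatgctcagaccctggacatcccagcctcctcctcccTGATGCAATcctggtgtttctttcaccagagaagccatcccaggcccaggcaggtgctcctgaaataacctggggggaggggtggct
FUT4: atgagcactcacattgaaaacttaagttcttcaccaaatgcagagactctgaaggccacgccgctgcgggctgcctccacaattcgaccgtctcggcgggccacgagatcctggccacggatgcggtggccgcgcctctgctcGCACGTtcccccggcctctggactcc
The FUT1 stretch covers 200 to 33 bases before the start site, and its match, TGATGCAAT, lies 119 to 111 bases before it. The FUT4 stretch covers 250 to 82 bases before the start site and its match, GCACGT, lies 107 to 102 bases before it. Windows of 300 bases, 250 of them before the start site, were found for 51 of the 65 members (85 windows), and 14 patterns, chosen after fold changes were seen, were searched on both strands in all 35116 windows of the table. TGATGNAAT was in 0.991% of all windows and in 1 member, FUT1; its exact form TGATGCAAT was in 0.236% of all windows. The heat shock element of 3 alternating units, GAA, TTC and GAA with 2 bases between them, was in 0.49% of all windows and in 1 member, ST3GAL5. Its shorter forms, which overlap it, were GAANNTTC in 6.769% of windows and TTCNNGAA in 7.737%. Among members, GCNT1 and ST3GAL5 held GAANNTTC, and CHST3, GCNT1, GCNT2 and ST3GAL5 held TTCNNGAA. The E2F element TTTCCCGC, in 1.629% of windows, was in ST3GAL4, and the full palindromic androgen response element, in 0.003%, was in no member window. ACGTGC was in 6.889% of windows and in 6 members, B4GALT2, CHST15, FUT4, GALNT9, GCNT2 and ST3GAL4. The Golgi stress element ACGTGGC was in 3.215% of windows and in B3GALT6, B4GALT2, MGAT1 and ST3GAL5, and TGACGTGG of the unfolded protein response, which overlaps it, was in 0.729% and in GCNT1. The cyclic AMP element TGACGTCA was in 1.848% of windows and in ST3GAL5, and the endoplasmic reticulum stress element, by name alone, was in 0.074% and in ST3GAL4. The GC box GGGCGG was in 44.954% of windows and in 46 members (58 of their 85 windows). CCAAT, which also opens the endoplasmic reticulum stress element, was in 34.614% of windows and in 23 members (26 windows). These matches describe letters in a window, and binding was not measured.

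The libraries held 27229291 to 29159387 reads assigned to genes in the DTHIB group and 29499458 to 30926053 in the DMSO group. The labels do not say whether the 4 libraries of a group came from separate cultures, so p-values measure the spread between these libraries. The 12 luminal prostate markers were detected, with sums of 327662 to 332074 normalized counts in DTHIB libraries and 265139 to 270704 in DMSO libraries; 8 of them rose, and KRT8, KRT18 and HOXB13 fell. The lists held 6 basal, 8 stromal and 6 neuroendocrine markers, of which 4, 4 and 3 reached a mean of 10 and were tested. Of 4 tested basal markers 1 rose and 2 fell, and of 4 tested stromal markers 2 rose and 1 fell. Of 3 tested neuroendocrine markers 1 rose and 2 fell. Sums over the whole lists were 1628 to 1699 (basal), 2195 to 2404 (stromal) and 297 to 362 (neuroendocrine) in DTHIB libraries. In DMSO libraries they were 1355 to 1536 (basal), 1893 to 2151 (stromal) and 358 to 455 (neuroendocrine). The neuroendocrine factor INSM1 was listed at 0. Of the 6 blood cell markers, 1 was at 0 and 1 reached a mean of 10, and their sums were 18.0 to 39.9 in DTHIB libraries and 10.6 to 28.7 in DMSO libraries. Of 11 heat shock genes, 10 fell (median log2 fold change -0.46). Among all tested genes 31% rose and 33.7% fell, and all these marker and heat shock counts stand beside those shares. The part of these differences in the results on glycosyltransferases was not tested. In bulk RNA, fewer cells that express a gene and less of its RNA per cell cannot be told apart.

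About as many glycosylation genes differed between DTHIB and DMSO cells as did not pass the test, and both directions occurred in 5 classes: initiation of mucin O-glycans, lactosamine chains, sialic acid, fucose and chondroitin sulfation. FUT1, GCNT1 and ST3GAL1 were among those that rose, and FUT4, B3GNT2 and HS6ST1 among those that fell. Normalized counts are read counts scaled for each library's depth by the authors, and fold changes are DTHIB over DMSO on the log2(normalized count + 1) scale. At an adjusted p under 0.05 (limma, Benjamini-Hochberg over all tested genes), 11 of the 65 members rose and 23 fell, which is 52.3% called against 64.6% of all tested genes. Rises made up 31% and falls 33.7% of all tested genes. The class counts given below stand beside these shares, and no class was tested against them. A log2 fold change above 0 was found in 26 members and in 49.5% of all tested genes. The median log2 fold change of the members was -0.05 and that of all tested genes -0.01, and with quantile normalization they were 0.01 for members and 0.02 for all genes. The median size of the change, without its sign, was 0.21 for members and 0.27 for all genes. A change beyond 1.5-fold was seen in 9 members, against 21.4% of all tested genes, and beyond 2-fold in 2, FUT4 and B3GNT5, against 8.01%. The 9 and the called members include B3GNT5 and GALNT9. Both reached a mean of 10 only through the group in which they were higher, so the filter favoured their change. In 34 members the values of the groups did not overlap, which is 52.3% of them against 57.9% of all genes. At means of 1000 or more, 59.1% of 22 members and 77.3% of 6506 genes were called; at means of 100 to 1000, 54.2% of 24 members and 67.5% of 5384 genes were. At means of 10 to 100 the shares were 42.1% of 19 members and 46.2% of 5304 genes. The authors' deposited table, which tested the same libraries, called 28 members, 9 that rose and 19 that fell, all of them among the 34.

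**Figure D1:**
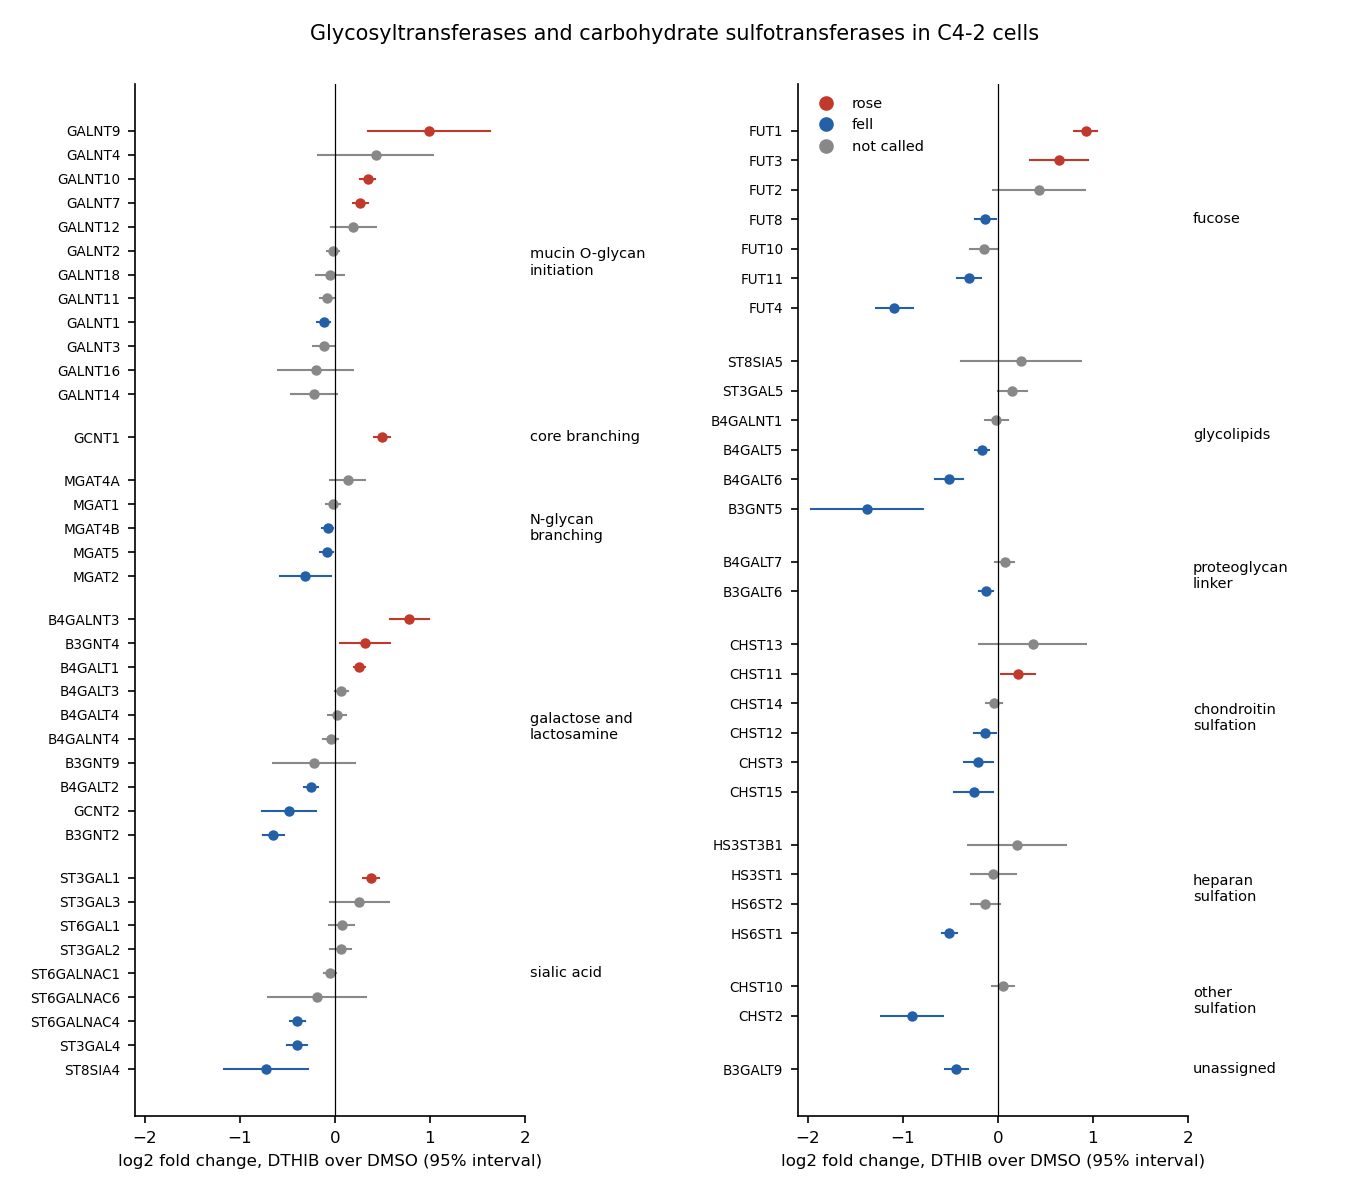
Log2 fold change of DTHIB over DMSO for the 65 members (points) with 95% intervals (lines), grouped by what each enzyme builds and ordered by fold change within a group; red rose, blue fell, grey was not called by limma at an adjusted p under 0.05. FUT1 at 0.92 and FUT4 at -1.09 lie at opposite ends of the fucose group, and rises and falls stand side by side in 5 groups.

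**Figure D2:**
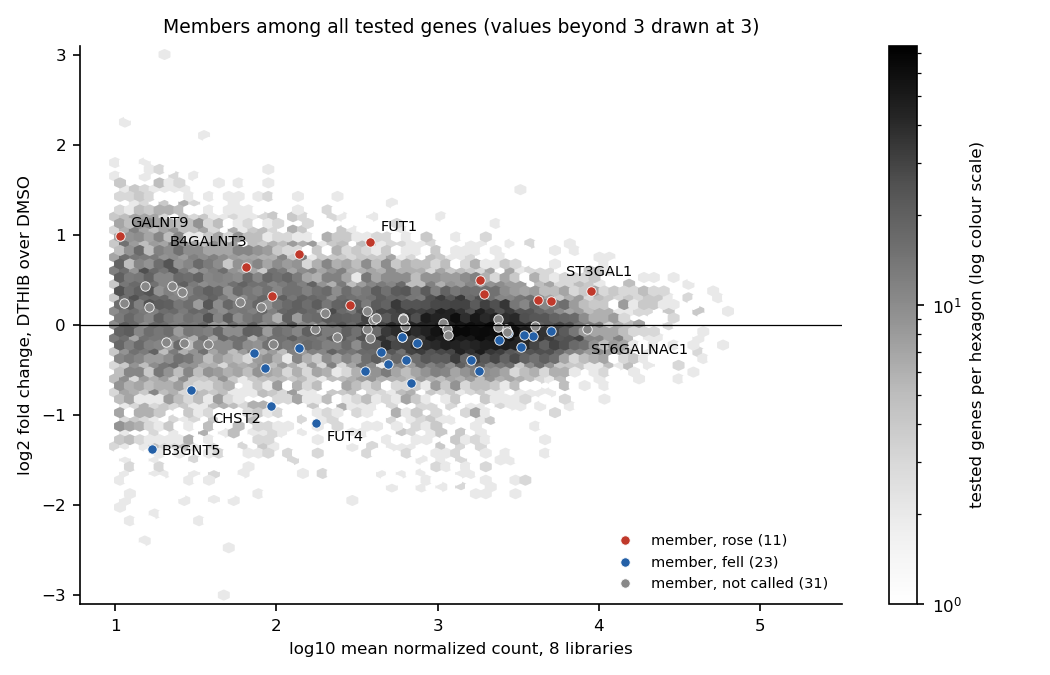
Log2 fold change of DTHIB over DMSO against the log10 mean normalized count of all 17194 tested genes (grey hexagons, darker where more genes lie) and of the 65 members (points, coloured as called). The members lie within the cloud of all genes, with a median log2 fold change of -0.05; B3GNT5 and FUT4 are the lowest and GALNT9 and FUT1 the highest members.

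Mucin-type O-glycans begin with N-acetylgalactosamine on serine or threonine, added by the GALNT enzymes. Of 12 tested GALNT genes, 3 rose and 1 fell, and 8 were not called; the median log2 fold change was -0.03. GALNT10 and GALNT7, which prefer peptides that already carry a first N-acetylgalactosamine, both rose. GALNT10 (ENSG00000164574, chr5:154190730-154420984, GRCh38 and GENCODE 29 as for all gene positions) had 2181, 2149, 2049 and 2276 normalized counts in the DTHIB libraries, against 1655, 1660.3, 1749 and 1749 in the DMSO libraries. All 4 DTHIB libraries were above all DMSO libraries, with a log2 fold change of 0.34, 95% interval 0.26 to 0.42, limma adjusted p = 4.65e-07. Means were 2164 ± 93.5 normalized counts in DTHIB and 1703 ± 52.7 in DMSO libraries (SD, n = 4 each, as for every mean that follows). GALNT7 (ENSG00000109586), the GALNT gene with the highest mean count, had 4639, 4535, 4771 and 4364 normalized counts in the DTHIB libraries, against 3879, 4024, 3714 and 3571 in the DMSO libraries. The groups again did not overlap (log2 fold change 0.27, 95% interval 0.19 to 0.35, limma adjusted p = 8.62e-06).

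GALNT1, a broadly expressed enzyme of this step, was lower by a small amount. It had 3506, 3233, 3203 and 3276 normalized counts in the DTHIB libraries, against 3605, 3552, 3548 and 3607 in the DMSO libraries, with every DTHIB library below every DMSO library. The change was small (log2 fold change -0.12, 95% interval -0.18 to -0.05, limma adjusted p = 0.00486). This call was lost with quantile normalization (log2 fold change -0.03, limma adjusted p = 0.435). It was also lost once a trend with exon length and GC content was removed (limma adjusted p = 0.961). GALNT9 was at the lower limit of the set and had 15.6, 16.7, 17.0 and 8.98 normalized counts in the DTHIB libraries, against 8.62, 7.66, 4.82 and 6.01 in the DMSO libraries. It rose (log2 fold change 0.99, 95% interval 0.35 to 1.63, limma adjusted p = 0.00892) but reached a mean of 10 through the DTHIB libraries alone. The well-expressed GALNT2, with means of 4007 ± 87.1 normalized counts in DTHIB and 4051 ± 72.7 in DMSO libraries, had a log2 fold change of -0.02 and was not called. It was called lower with the same trend removed (-0.07, limma adjusted p = 0.0353). GALNT3, which protects the hormone FGF23 from cleavage, averaged 1115 ± 80.9 normalized counts in DTHIB and 1208 ± 60.0 in DMSO libraries and was not called. Its limma adjusted p of 0.0573 became 0.0235 without DMSO replicate 4 and 0.00928 without DTHIB replicate 3. Exons of GALNT4 share 93.2% of their length with a read-through transcript on the same strand, so its 17.4 ± 3.63 normalized counts in DTHIB and 13.2 ± 5.02 in DMSO libraries are uncertain.

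GCNT1, which adds the core 2 branch to O-glycans, rose and was the 1 tested enzyme of core branching; GCNT3, GCNT4, B3GNT3 and B3GNT6 had means under 10. GCNT1 (ENSG00000187210, chr9:76419850-76651203) had 2256, 2112, 2131 and 2107 normalized counts in the DTHIB libraries, against 1591, 1525, 1419 and 1565 in the DMSO libraries. The lowest DTHIB library stood well above the highest DMSO library (log2 fold change 0.50, 95% interval 0.41 to 0.58, limma adjusted p = 9.49e-09). Means were 2152 ± 70.3 normalized counts in DTHIB and 1525 ± 75.6 in DMSO libraries. Its processed pseudogene GCNT1P1, to which reads of GCNT1 could be assigned, held 3.13 to 6.25 normalized counts in DTHIB libraries and 0 to 0.957 in DMSO libraries.

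Sialic acid caps the chains, and here the main enzymes moved in both directions: of 9 tested members, 1 rose, 3 fell and 5 were not called. ST3GAL1 (ENSG00000008513), which caps the core 1 disaccharide of O-glycans and so competes with GCNT1 for it, had 9385, 10044, 10895 and 9981 normalized counts in the DTHIB libraries, against 7760.5, 7436, 7684 and 8104 in the DMSO libraries. It was the member with the highest mean count, and every DTHIB library exceeded every DMSO library (log2 fold change 0.38, 95% interval 0.30 to 0.46, limma adjusted p = 2.27e-07). Means were 10076 ± 621 normalized counts in DTHIB and 7746 ± 275 in DMSO libraries. The ratio of GCNT1 to ST3GAL1, each per kilobase of exon, was 0.205 ± 0.0179 in DTHIB libraries and 0.188 ± 0.00951 in DMSO libraries (SD, n = 4 each), with overlapping values.

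ST6GALNAC4, which adds a further sialic acid to the sialylated core 1 chain, fell. It (ENSG00000136840, chr9:127907886-127917038) had 1365, 1392, 1419 and 1401 normalized counts in the DTHIB libraries, against 1811, 1783, 1921 and 1809 in the DMSO libraries. The groups were far apart relative to their spread (log2 fold change -0.39, 95% interval -0.47 to -0.32, limma adjusted p = 3.89e-08). Means were 1394 ± 22.6 normalized counts in DTHIB and 1831 ± 61.4 in DMSO libraries. ST3GAL4, which caps lactosamine chains and takes part in sialyl Lewis x, fell too (log2 fold change -0.40, 95% interval -0.50 to -0.29, limma adjusted p = 2.4e-06). It had 587, 517, 552 and 534 normalized counts in the DTHIB libraries, against 736, 698, 718 and 728 in the DMSO libraries, without overlap. Per kilobase of exon, ST3GAL1 stood 9.31 ± 0.857 times above ST3GAL4 in DTHIB libraries and 5.43 ± 0.127 times in DMSO libraries (SD, n = 4 each).

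ST8SIA4, a polysialyltransferase, was low and fell (log2 fold change -0.72, 95% interval -1.17 to -0.28, limma adjusted p = 0.00645). It had 16.7, 25.0, 23.0 and 22.9 normalized counts in the DTHIB libraries, against 25.9, 38.3, 45.3 and 39.1 in the DMSO libraries. The groups did not overlap, though the highest DTHIB library and the lowest DMSO library differed by less than 1 count. ST6GALNAC1, the sialyl-Tn synthase, was the most abundant member per kilobase of exon, with 2414 ± 52.7 normalized counts per kilobase in DTHIB libraries and 2502 ± 81.5 in DMSO libraries (SD, n = 4 each). Its log2 fold change of -0.05 was not called, and its groups overlapped. ST6GAL1, which caps N-glycans, averaged 428 ± 31.6 normalized counts in DTHIB and 407 ± 18.0 in DMSO libraries and was not called (log2 fold change 0.07). ST6GALNAC6 lies 2478 bases from ST6GALNAC4, shares 47.0% of its exon length with another gene on the same strand, and is uncertain at 19.5 ± 5.05 normalized counts in DTHIB and 22.0 ± 4.77 in DMSO libraries.

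Fucose decorates, among other sites, the ends of chains or, through FUT8, the core of N-glycans. No site is assigned here to FUT10 and FUT11. The fucosyltransferases held both the highest and the lowest fold change among members with a mean of at least 100. Of 7 tested, 2 rose and 3 fell. FUT1, which makes the H antigen, the precursor of blood groups A and B, rose most. FUT1 (ENSG00000174951, chr19:48748011-48755390) had 469, 512, 531 and 499 normalized counts in the DTHIB libraries, against 271, 269, 259 and 259.5 in the DMSO libraries. Each DTHIB library was far above each DMSO library (log2 fold change 0.92, 95% interval 0.80 to 1.05, limma adjusted p = 5.38e-10). Means were 503 ± 26.2 normalized counts in DTHIB and 265 ± 6.38 in DMSO libraries. FUT2, the secretor enzyme that makes the same structure, lies 42061 bases from FUT1 on chromosome 19 and averaged 26.1 ± 5.04 normalized counts in DTHIB and 19.2 ± 4.44 in DMSO libraries. It was not called (log2 fold change 0.43, limma adjusted p = 0.107).

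FUT4, which fucosylates lactosamine to Lewis x, fell most among members with a mean of at least 100. FUT4 (ENSG00000196371, chr11:94543840-94549898) had 108, 105, 122 and 117 normalized counts in the DTHIB libraries, against 264, 237, 256 and 209 in the DMSO libraries. The highest DTHIB library lay well below the lowest DMSO library. The averages were 113 ± 7.60 normalized counts in DTHIB and 242 ± 24.3 in DMSO libraries (log2 fold change -1.09, 95% interval -1.28 to -0.89, limma adjusted p = 2.4e-08). Exons of FUT4 share 11.3% of their length with PIWIL4 on the same strand, a gene with a mean of 2.98 normalized counts. FUT3, the Lewis enzyme (ENSG00000171124, chr19:5842888-5851474), had 75.0, 74.0, 86.9 and 81.8 normalized counts in the DTHIB libraries, against 55.5, 61.2, 42.5 and 45.1 in the DMSO libraries. Here the DTHIB libraries were the higher ones, again without overlap. This gave 79.4 ± 6.06 normalized counts in DTHIB and 51.1 ± 8.82 in DMSO libraries (log2 fold change 0.64, 95% interval 0.34 to 0.94, limma adjusted p = 0.000932). FUT3 has close relatives in FUT5 and FUT6. FUT5 was listed at 0 and FUT6 averaged 3.81 normalized counts in DTHIB and 1.70 in DMSO libraries.

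FUT11, a more distant relative of the Lewis enzymes, had 404, 399, 406 and 379 normalized counts in the DTHIB libraries, against 513, 505, 507 and 437 in the DMSO libraries. It fell without overlap (log2 fold change -0.30, 95% interval -0.43 to -0.17, limma adjusted p = 0.000369). FUT8, which adds the core fucose of N-glycans and had the highest mean count of the fucosyltransferases, had 588, 559.7, 586 and 559 normalized counts in the DTHIB libraries, against 594, 613, 630.0 and 677 in the DMSO libraries. Its groups were separated by a few counts, and the fall was small (log2 fold change -0.13, 95% interval -0.24 to -0.02, limma adjusted p = 0.0326). The call was lost in 9 of 18 alternatives. Among these, leaving out DMSO replicate 3 or 4 or DTHIB replicate 2 or 4 gave log2 fold changes of -0.13 to -0.10 (limma adjusted p = 0.0628 to 0.123). FUT10 averaged 362 ± 31.6 normalized counts in DTHIB and 399.6 ± 6.56 in DMSO libraries and was not called. Its limma adjusted p of 0.0606 became 0.0395 without DTHIB replicate 2. Summed per kilobase of exon, the 7 genes reached 399 ± 12.23 normalized counts per kilobase in DTHIB libraries and 388 ± 8.34 in DMSO libraries, with overlapping sums. Within that sum FUT1 held 29.02% ± 0.644 in DTHIB and 15.7% ± 0.279 in DMSO libraries, and FUT4 4.68% ± 0.255 in DTHIB and 10.3% ± 0.855 in DMSO libraries (SD, n = 4 each). FUT1 stood 6.22 ± 0.381 times above FUT4 in DTHIB libraries and 1.54 ± 0.148 times in DMSO libraries.

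**Figure D3:**
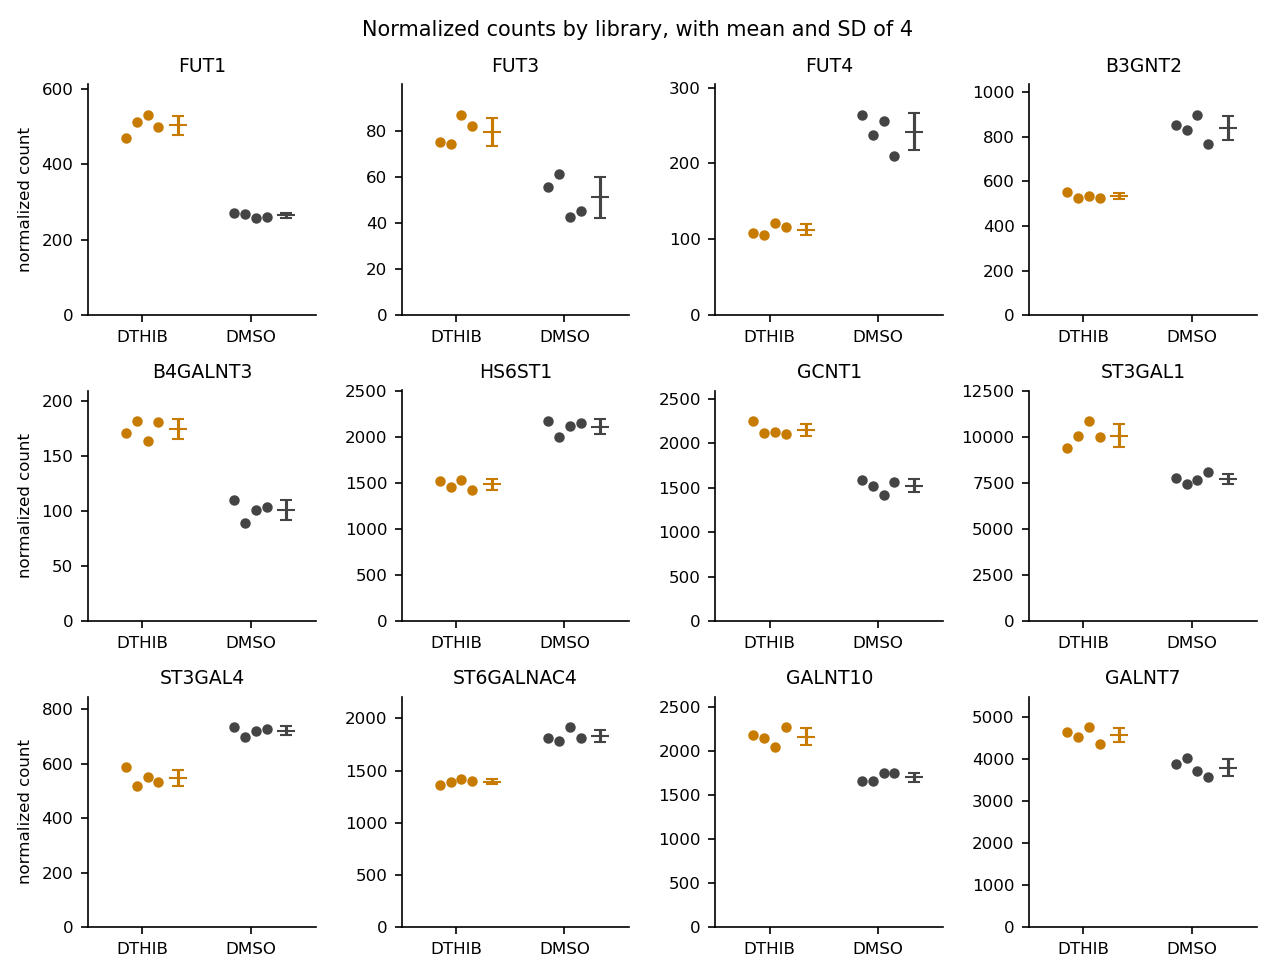
Normalized counts of 12 changed members in each library (points, DTHIB in orange and DMSO in grey), with the mean and SD of 4 libraries beside them; every vertical axis starts at 0. In all 12 genes the groups do not overlap: FUT1 has 469 to 531 in DTHIB and 259 to 271 in DMSO libraries, and FUT4 105 to 122 in DTHIB and 209 to 264 in DMSO libraries.

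The chains that carry these caps are extended by galactose and N-acetylglucosamine in turn, the lactosamine repeat. Of 10 tested members of this class 3 rose, 3 fell and 4 were not called, with a median of -0.01. B3GNT2, the main enzyme that adds the N-acetylglucosamine of poly-lactosamine, fell. B3GNT2 (ENSG00000170340, chr2:62196113-62224731) had 553, 525, 533 and 525 normalized counts in the DTHIB libraries, against 853, 832, 898 and 769 in the DMSO libraries. The groups were separate and the DTHIB libraries lay close together. Group means were 534 ± 13.4 normalized counts in DTHIB and 838 ± 53.9 in DMSO libraries (log2 fold change -0.65, 95% interval -0.76 to -0.54, limma adjusted p = 8.58e-09).

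The galactose of the repeat is added by B4GALT1 and its relatives. B4GALT1 (ENSG00000086062, chr9:33104082-33167356), which also serves lactose synthesis in milk, had 5623, 5613, 5441 and 5321 normalized counts in the DTHIB libraries, against 4618, 4606, 4468 and 4689 in the DMSO libraries. It was higher in every DTHIB library (log2 fold change 0.26, 95% interval 0.20 to 0.32, limma adjusted p = 6.52e-07). B4GALT2 (ENSG00000117411, chr1:43978943-43991170), a close relative with the same reaction, had 3134, 2813, 3029 and 3038 normalized counts in the DTHIB libraries, against 3417, 3558, 3659 and 3619 in the DMSO libraries. It was lower in every DTHIB library (log2 fold change -0.25, 95% interval -0.32 to -0.17, limma adjusted p = 1.22e-05). Per kilobase of exon, B4GALT1 reached 1122 ± 29.7 and B4GALT2 796 ± 36.0 normalized counts in DTHIB libraries. In DMSO libraries B4GALT1 reached 938 ± 18.8 and B4GALT2 945 ± 28.1 (SD, n = 4 each), within each other's spread. B4GALT3 was not called at a limma adjusted p of 0.0605, although its DTHIB values of 2371 to 2505 normalized counts lay above its DMSO values of 2282 to 2362. It was called higher without DTHIB replicate 2 (limma adjusted p = 0.0446), with edgeR (adjusted p = 0.016), with DESeq2 (adjusted p = 0.0384), with quantile normalization (limma adjusted p = 0.000183) and with the length and GC trend removed (limma adjusted p = 0.0377). PPOX, on the other strand, shares 28.7% of its exon length.

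B4GALNT3, which caps chains with N-acetylgalactosamine to give the LacdiNAc unit, rose. It had 171, 182, 164 and 182 normalized counts in the DTHIB libraries, against 110.1, 89.0, 101 and 104 in the DMSO libraries, without overlap. Means were 175 ± 8.94 normalized counts in DTHIB and 101 ± 8.91 in DMSO libraries (log2 fold change 0.78, 95% interval 0.58 to 0.99, limma adjusted p = 1.83e-06). Its far more abundant partner in the same reaction, B4GALNT4, averaged 2606 ± 138 normalized counts in DTHIB and 2685 ± 95.3 in DMSO libraries and was not called (log2 fold change -0.04, turning to 0.04 with quantile normalization). With the trend of exon length and GC content removed it was called lower (-0.13, limma adjusted p = 0.00553). B4GALNT3 accounted for 3.20% ± 0.259 of the summed level of the B4GALNT genes per kilobase in DTHIB libraries and 1.82% ± 0.131 in DMSO libraries. GCNT2, which branches lactosamine chains to the I antigen, fell (log2 fold change -0.48, 95% interval -0.77 to -0.19, limma adjusted p = 0.00521). It averaged 71.6 ± 14.1 normalized counts in DTHIB and 99.0 ± 3.86 in DMSO libraries. B3GNT4 was called higher (limma adjusted p = 0.0307), but its groups overlapped, at 105 ± 11.6 normalized counts in DTHIB and 83.9 ± 9.22 in DMSO libraries. Without DMSO replicate 3 or DTHIB replicate 1, 2 or 4 the call was lost (log2 fold changes of 0.24 to 0.32, limma adjusted p = 0.0576 to 0.111). B3GNT4 shares 20.7% of its exon length with DIABLO on the other strand.

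N-glycan branching by the MGAT enzymes had a median change, without its sign, of 0.09 on the log2 scale: of 5 tested genes 3 fell, each by less than 0.31 on the log2 scale, and none rose. MGAT4B (ENSG00000161013), the most abundant, had 4842, 4915, 4953 and 4903 normalized counts in the DTHIB libraries, against 5168, 4996, 5224 and 5232 in the DMSO libraries. MGAT5 (ENSG00000152127), whose branch favours poly-lactosamine extension, had 2661, 2585, 2710.5 and 2645 normalized counts in the DTHIB libraries, against 2800.4, 2737, 2804 and 2918 in the DMSO libraries. Neither gene's groups overlapped. The shift of MGAT4B was small (log2 fold change -0.07, 95% interval -0.13 to -0.01, limma adjusted p = 0.029), as was that of MGAT5 (log2 fold change -0.09, 95% interval -0.15 to -0.02, limma adjusted p = 0.0226).

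MGAT2, which starts the second antenna, had 71.9, 66.7, 53.9 and 68.8 normalized counts in the DTHIB libraries, against 79.5, 79.4, 85.9 and 78.2 in the DMSO libraries. Its groups did not overlap (log2 fold change -0.31, 95% interval -0.58 to -0.04, limma adjusted p = 0.0416). All 3 falls rest on thin margins: none was called by DESeq2 on reads recovered from the normalized counts, or without a filter on low counts. The authors' deposited DESeq2 results called MGAT4B (adjusted p = 0.0373) and MGAT5 (adjusted p = 0.0411) lower, but not MGAT2 (adjusted p = 0.156). With quantile normalization MGAT2 alone was called while MGAT4B turned to 0.03. MGAT2 was lost without each of DMSO replicates 1 to 4 or DTHIB replicates 2 and 3 (log2 fold changes of -0.32 to -0.22, limma adjusted p = 0.0535 to 0.135). MGAT4B was lost without DMSO replicate 1, 3 or 4 or DTHIB replicate 1 or 4 (-0.07 to -0.06, limma adjusted p = 0.0541 to 0.0802). MGAT5 was lost without DMSO replicate 4 or DTHIB replicate 2 (-0.07 in both, limma adjusted p = 0.0815 and 0.0593). MGAT1, which opens the pathway to hybrid and complex N-glycans, averaged 2352 ± 60.6 normalized counts in DTHIB and 2386 ± 79.4 in DMSO libraries and was not called (log2 fold change -0.02). It was called lower with the trend of exon length and GC content removed (-0.13, limma adjusted p = 0.00331). The annotation has transcripts of MGAT4B outside the primary assembly, and 91.9% of MGAT2's exon length lies opposite an antisense gene that was at 0.

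Of 6 tested genes of glycosphingolipid synthesis 3 fell and none rose, beside falls in 33.7% and rises in 31% of all tested genes. B4GALT5 and B4GALT6 make lactosylceramide, the branch point of this pathway. B4GALT6 (ENSG00000118276, chr18:31622247-31685836) had 292, 304, 305 and 270.3 normalized counts in the DTHIB libraries, against 451, 372, 409 and 445 in the DMSO libraries, without overlap. The averages were 293 ± 16.1 normalized counts in DTHIB and 419 ± 36.4 in DMSO libraries (log2 fold change -0.51, 95% interval -0.66 to -0.36, limma adjusted p = 7.09e-06). B4GALT5 (ENSG00000158470), far more abundant, had 2202, 2199, 2320.0 and 2294 normalized counts in the DTHIB libraries, against 2548, 2496, 2623 and 2444 in the DMSO libraries. It fell by less (log2 fold change -0.17, 95% interval -0.24 to -0.09, limma adjusted p = 0.000376).

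B3GNT5, which opens the lacto series of lipids, had 13.5, 7.30, 7.99 and 6.98 normalized counts in the DTHIB libraries, against 17.2, 23.0, 33.8 and 25.1 in the DMSO libraries. Its groups did not overlap, and of the 65 members it had the lowest fold change (log2 fold change -1.38, 95% interval -1.97 to -0.79, limma adjusted p = 0.000353). It reached a mean of 10 through the DMSO libraries alone, and 16.2% of its exon length is shared with MCF2L2 on the other strand. The ganglioside enzymes B4GALNT1, ST3GAL5 and ST8SIA5 were not called. B4GALNT1, which makes GM2 and GD2, averaged 628 ± 44.1 normalized counts in DTHIB and 634 ± 40.0 in DMSO libraries. ST3GAL5, which makes GM3, averaged 386 ± 26.8 normalized counts in DTHIB and 348 ± 30.4 in DMSO libraries. ST3GAL5 had a log2 fold change of 0.15 (limma adjusted p = 0.0744) and was called higher without DMSO replicate 3 or 4 or DTHIB replicate 4 (limma adjusted p = 0.0348 to 0.0499). UGCG, the glucosylceramide synthase upstream of these enzymes and not a member, fell, averaging 823 ± 36.2 normalized counts in DTHIB and 1081 ± 41.0 in DMSO libraries.

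Proteoglycan chains hang on a linker that holds a pair of galactoses, added by B4GALT7 and B3GALT6. B3GALT6 (ENSG00000176022), second among members in level per kilobase of exon, had 3802, 3623, 3881 and 3674 normalized counts in the DTHIB libraries, against 4102, 3865, 4212 and 4140.5 in the DMSO libraries. Its groups overlapped by a single pair of libraries and it fell slightly (log2 fold change -0.12, 95% interval -0.19 to -0.05, limma adjusted p = 0.0041), a call lost with quantile normalization (-0.04, limma adjusted p = 0.232). B4GALT7 averaged 628 ± 11.0 normalized counts in DTHIB and 597 ± 19.5 in DMSO libraries and was not called.

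On chondroitin and dermatan chains, sulfation genes gave 1 rise and 3 falls among 6 tested, all of them small. CHST14, the dermatan sulfotransferase and the highest of the class in mean count, had 1150.3, 1083, 1169 and 1129 normalized counts in the DTHIB libraries, against 1134, 1188, 1156 and 1186 in the DMSO libraries. Its groups overlapped, and it was not called (log2 fold change -0.04). CHST3, which sulfates position 6 of N-acetylgalactosamine, had 707, 639, 678 and 736 normalized counts in the DTHIB libraries, against 729.8, 697, 853 and 914 in the DMSO libraries. Its groups overlapped (log2 fold change -0.20, 95% interval -0.36 to -0.05, limma adjusted p = 0.0226). CHST15, which adds a second sulfate to that sugar, had 139, 125, 129 and 109.7 normalized counts in the DTHIB libraries, against 139.8, 159, 149 and 150.3 in the DMSO libraries. The highest DTHIB and the lowest DMSO value almost touched (log2 fold change -0.25, 95% interval -0.46 to -0.05, limma adjusted p = 0.0306).

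CHST11 and CHST12 both sulfate position 4, and they were called in opposite directions. CHST11 had 292, 338, 286 and 315 normalized counts in the DTHIB libraries, against 236, 246, 301 and 279.6 in the DMSO libraries. It was called higher (log2 fold change 0.21, 95% interval 0.04 to 0.39, limma adjusted p = 0.0338). CHST12 had 564, 570.1, 597 and 568 normalized counts in the DTHIB libraries, against 589, 629.7, 689.8 and 616 in the DMSO libraries and was called lower (log2 fold change -0.13, 95% interval -0.25 to -0.02, limma adjusted p = 0.0377). Values of the groups overlapped in both. All 4 calls depended on single libraries, and with quantile normalization or DESeq2 1 of the 3 falls was left. CHST3 was lost without DMSO replicate 3 or 4 or DTHIB replicate 2 (log2 fold changes of -0.17 to -0.14, limma adjusted p = 0.0691 to 0.0968). CHST15 was lost without DMSO replicate 2, 3 or 4 or DTHIB replicate 4 (-0.25 to -0.19, limma adjusted p = 0.0553 to 0.107). CHST11 was lost without DMSO replicate 1 or 2 or DTHIB replicate 2 or 4 (0.16 to 0.20, limma adjusted p = 0.0765 to 0.12). CHST12 was lost without DMSO replicate 2 or 3 or DTHIB replicate 1, 2 or 4 (-0.13 to -0.09, limma adjusted p = 0.0631 to 0.157).

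Among heparan sulfate sulfotransferases, HS6ST1, which sulfates position 6 of glucosamine, had the highest mean count and was the 1 of 4 that fell. HS6ST1 (ENSG00000136720, chr2:128236716-128318577) had 1525, 1455, 1536 and 1421 normalized counts in the DTHIB libraries, against 2177, 2001, 2118 and 2156 in the DMSO libraries. The groups stood apart by several times their spread. This gave 1484 ± 55.3 normalized counts in DTHIB and 2113 ± 78.6 in DMSO libraries (log2 fold change -0.51, 95% interval -0.59 to -0.43, limma adjusted p = 4.05e-09). HS6ST2, with the same reaction, averaged 228 ± 15.5 normalized counts in DTHIB and 249 ± 6.10 in DMSO libraries. Its groups did not overlap, but its log2 fold change of -0.13 was not called (limma adjusted p = 0.121). Together the HS6ST genes summed to 362 ± 14.9 normalized counts per kilobase of exon in DTHIB and 501 ± 17.6 in DMSO libraries. HS3ST1 and HS3ST3B1, which sulfate position 3, were not called.

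Of the remaining sulfotransferases, CHST2, which sulfates N-acetylglucosamine in ligands of L-selectin, had 62.5, 45.9, 78.9 and 71.8 normalized counts in the DTHIB libraries, against 122, 99.5, 123 and 137 in the DMSO libraries. It fell without overlap. Group means were 64.8 ± 14.3 normalized counts in DTHIB and 120.2 ± 15.6 in DMSO libraries (log2 fold change -0.90, 95% interval -1.23 to -0.57, limma adjusted p = 7.83e-05). CHST10, the enzyme of the HNK-1 epitope, had 419, 394, 401 and 400.0 normalized counts in the DTHIB libraries, against 411, 379, 386 and 381 in the DMSO libraries. Its groups overlapped, and its log2 fold change of 0.05 was not called. B3GALT9, whose product is left unassigned here, had 426, 436, 438 and 383 normalized counts in the DTHIB libraries, against 555, 555, 602 and 566 in the DMSO libraries. It fell without overlap (log2 fold change -0.44, 95% interval -0.56 to -0.32, limma adjusted p = 3.81e-06). FBXW2, on the other strand, shares 16.1% of its exon length.

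Set side by side, the families differed in whether their sum moved or only its composition. Summed per kilobase of exon, 8 of 15 families had totals that did not overlap between the groups. Among all tested genes, taken singly and not as sums, the groups did not overlap in 57.9%, so the count itself does not set these families apart. The GCNT total was 240 ± 6.87 normalized counts per kilobase in DTHIB and 176 ± 8.39 in DMSO libraries, and the ST3GAL total 1352 ± 66.3 in DTHIB and 1121 ± 37.6 in DMSO libraries (SD, n = 4 each). Lower totals were those of B3GNT, at 222 ± 4.42 in DTHIB and 328 ± 17.6 in DMSO libraries, and of ST6GALNAC, at 2948 ± 56.5 in DTHIB and 3203 ± 93.9 in DMSO libraries. Totals of B3GALT, MGAT, HS6ST and ST8SIA were lower too. As DTHIB over DMSO, the ratio of means was 0.68 for B3GNT, 0.92 for ST6GALNAC and 0.89 for B3GALT. It was 0.95 for MGAT, 0.72 for HS6ST and 0.66 for the low ST8SIA. The GALNT total (2744 ± 46.3 in DTHIB and 2685 ± 36.8 in DMSO libraries) and the B4GALT total (3354 ± 56.5 in DTHIB and 3361 ± 30.8 in DMSO libraries) overlapped between the groups, although single genes within them were called. The members were named with earlier results known and each sum is carried by its most abundant genes, so these totals are given as values with no test. They use the authors' normalization alone. With quantile normalization B3GALT6, the larger part of the B3GALT sum, lost its call (log2 fold change -0.04). MGAT4B, the largest part of the MGAT sum, turned to 0.03 there.

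**Figure D4:**
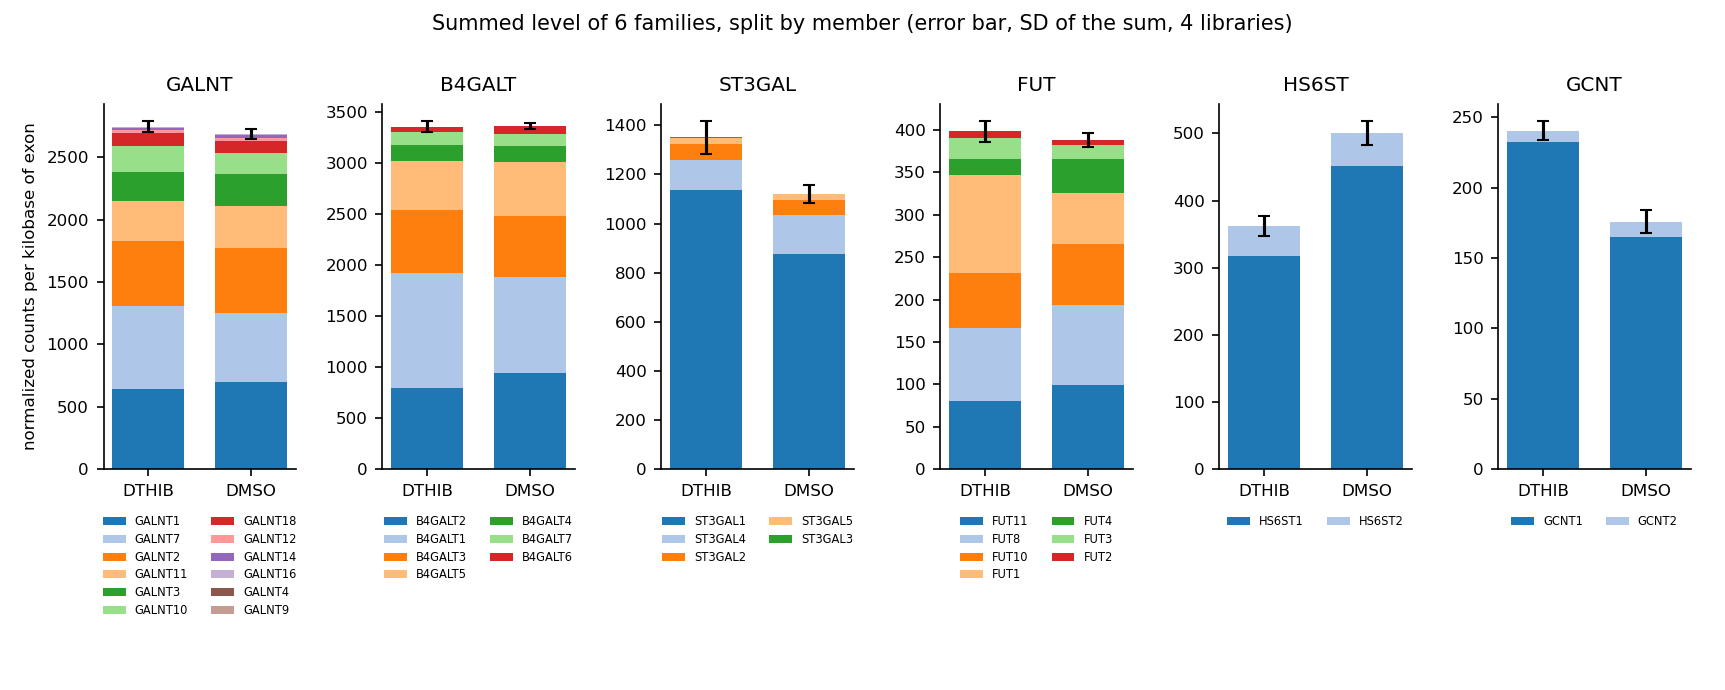
Summed level of 6 families in normalized counts per kilobase of exon, as the mean of 4 libraries, DTHIB left of DMSO, with each bar split by member and an error bar for the SD of the sum. The FUT sum is 399 in DTHIB and 388 in DMSO with a larger FUT1 and a smaller FUT4 segment in DTHIB, while the GCNT and ST3GAL sums are higher and the HS6ST sum lower in DTHIB.

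The enzymes draw on nucleotide sugars made in the cytosol or nucleus and carried into the Golgi, and genes of these steps also moved in both directions. So did all tested genes, of which 31% rose and 33.7% fell, and no list was tested against these shares. Of 12 tested genes of hexosamine and sialic acid donor synthesis 3 rose and 6 fell. GFPT1, which controls entry into the hexosamine pathway, rose, averaging 10786 ± 202 normalized counts in DTHIB and 7542 ± 167 in DMSO libraries (log2 fold change 0.52, limma adjusted p = 3.78e-11), and UAP1L1, a relative of the pathway's last enzyme, rose, averaging 2222 ± 65.1 normalized counts in DTHIB and 1518 ± 74.2 in DMSO libraries (0.55). GNPNAT1, which acetylates glucosamine phosphate in between, fell, averaging 4150.3 ± 114 normalized counts in DTHIB and 5262 ± 65.6 in DMSO libraries (-0.34). UAP1, the last enzyme itself and far more abundant than UAP1L1, fell slightly (-0.11, limma adjusted p = 0.0036). It averaged 20551 ± 488 normalized counts in DTHIB and 22128 ± 593 in DMSO libraries. Of 16 genes for other sugar and sulfate donors 3 rose and 5 fell; GMPPB, which makes GDP-mannose, fell by 0.35 on the log2 scale, FPGT of the fucose salvage route by 0.33 and UGDH, which makes UDP-glucuronic acid, by 0.29 on the log2 scale. Of 15 genes listed as donor transporters 4 rose and 7 fell. The falls include TMEM165 (-0.24), which is not a carrier of sugar or sulfate donors. SLC35A4 (-0.37), SLC35B4 (-0.39) and SLC35D2 (0.47) had the smallest adjusted p-values. SLC35A1, the CMP-sialic acid transporter, rose by more (0.55). SLC35D1, at a mean of 14.2 normalized counts, had the lowest fold change (-1.14, limma adjusted p = 0.043) with overlapping groups.

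Enzymes that start or trim N-glycans were mixed as well, as were all tested genes, of which 31% rose and 33.7% fell. The oligosaccharyltransferase and dolichol-linked assembly list was near these shares, at 34.5% and 37.9%. No list was tested. Of 29 genes of the oligosaccharyltransferase and of dolichol-linked assembly 10 rose and 11 fell, and ALG8 (-0.45) and ALG6 (-0.49), which glucosylate the lipid-linked precursor, and the transferase subunit TUSC3 (-0.30) had the smallest adjusted p-values. The largest changes of the list among called genes were those of ALG10, a further glucosyltransferase (-0.50), and KRTCAP2, a transferase subunit (0.69). Of 10 trimming genes 5 rose and 3 fell; the mannosidases MAN1B1 (0.30) and MAN2A2 (0.34) and the glucosidase II subunit PRKCSH (0.18) had the smallest adjusted p-values. Of 18 other glycosylation genes, which include enzymes of the endoplasmic reticulum and a chaperone, 3 rose and 8 fell. B3GLCT, which extends O-fucose on thrombospondin repeats, fell, averaging 461 ± 24.1 normalized counts in DTHIB and 823 ± 47.2 in DMSO libraries (log2 fold change -0.83, limma adjusted p = 6.61e-10), and UGCG (-0.39) and POMGNT2 of O-mannose chains (-0.35) fell too, next by adjusted p. By fold change C1GALT1 (-0.43) came next after B3GLCT among those that fell. Of 21 further genes of proteoglycan chains 7 rose and 6 fell, with CHPF (0.55) and CHPF2 (0.30) of chondroitin polymerization higher and EXTL3 of heparan synthesis lower (-0.32).

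Of 24 tested genes of Golgi structure and tethering 15 rose and 5 fell (median log2 fold change 0.17). The other glycosylation genes were nearly as one-sided the other way, with 3 rises and 8 falls among 18. COG5, a subunit of the complex that recycles Golgi enzymes, rose, averaging 2773 ± 93.6 normalized counts in DTHIB and 1859 ± 52.6 in DMSO libraries (log2 fold change 0.58, limma adjusted p = 2.13e-10). The golgins GOLGB1, at 10734 ± 711 normalized counts in DTHIB and 7219 ± 471 in DMSO libraries (0.57), and TRIP11 (0.41) rose too. The 15 rises among the 24 structure and tethering genes stand beside rises in 31% of all tested genes, and no test of the list was made.

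**Figure D5:**
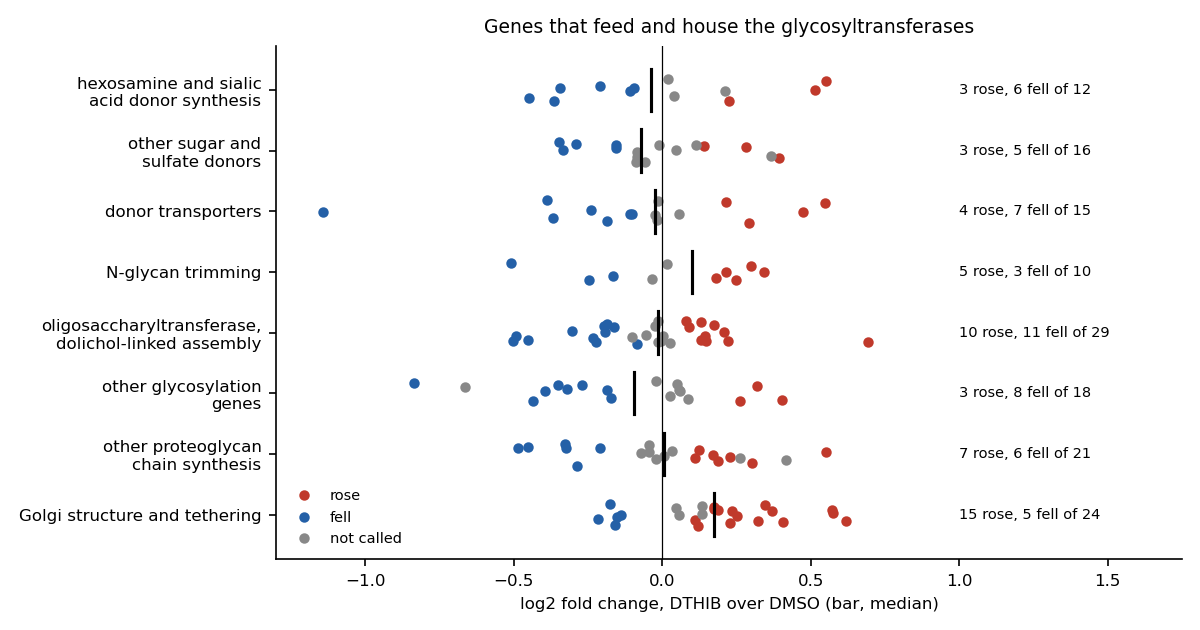
Log2 fold change of DTHIB over DMSO for genes of 8 lists related to glycosylation (points, coloured as called), with the median of each list as a black bar and counts at the right; vertical position within a list is arbitrary. Golgi structure and tethering has 15 rises and 5 falls, and the other glycosylation genes have 3 rises and 8 falls. The remaining lists have both directions in more even numbers.

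Of the 113 genes with a matching symbol, 48 had a mean under 10 normalized counts, and 6 of these, B3GALT4, FUT5, CHST4, HS3ST2, HS3ST6 and ST8SIA3, were listed at 0 in every library. Next below the limit were ST8SIA6 with a mean of 9.78, MGAT3 with 9.77 and GALNT6 with 8.30 normalized counts, and next above it GALNT9 with 10.7 and ST8SIA5 with 11.3. MGAT3, the bisecting N-acetylglucosamine transferase, was thus not tested here. Per kilobase of exon the tested members ran from ST8SIA5, at 0.776 in DTHIB and 0.658 in DMSO libraries, up to ST6GALNAC1. Behind ST6GALNAC1 came B3GALT6, at 1330 ± 41.8 in DTHIB and 1449 ± 53.4 in DMSO libraries, and then B4GALT1 and ST3GAL1. In DTHIB libraries B4GALT1 (1122 ± 29.7) and ST3GAL1 (1138 ± 70.2) did not differ beyond their spread, whereas in DMSO libraries B4GALT1 (938 ± 18.8) was above ST3GAL1 (875 ± 31.1) by more than 1 SD of either (SD, n = 4 each).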

How the data were processed

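RNA-seq libraries of C4-2 cells, 4 with DTHIB and 4 with DMSO as the treatment labels give it, were compared. The submitters' processing notes name build GRCh38, the trimmer Trimmomatic (0.36.5), the aligner HISAT2 (2.1.0), the assembler StringTie (1.3.4), the counter featureCounts (1.6.3) and DESeq2 (2.11.40.2). Not given in the sources used here were the annotation, the strand setting and the handling of multi-mapped reads. The signal the authors deposited is a normalized count per gene and library, that is, reads divided by a size factor. The authors also deposited a DESeq2 table with a mean normalized count (a signal), a log2 fold change with its standard error, a Wald score, a p-value and an adjusted p-value per gene.

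For 17194 genes with a mean of at least 10, limma 3.58.1 (R 4.3.3) was fitted to log2(normalized count + 1), two-sided, with an expression trend and without covariates. Adding 1 draws the fold changes of low genes towards 0; as logs are averaged, a variable low gene can still exceed its count-based value (CHST13, 0.37 against 0.27 with edgeR). A gene was called, as risen or fallen, where its adjusted p (Benjamini-Hochberg) was under 0.05. Of 58884 gene identifiers, 58611 were placed with GENCODE release 29 on GRCh38, and levels per kilobase use the union of annotated exons.

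Whole reads were recovered as multiples of the smallest step of each column (100% of values within 0.01) and served only the alternatives with edgeR 4.0.16 and DESeq2 1.42.0. An automatic test of this recovery passed in 5 columns; in the other 3, where the step lies near 1, it did not, and whole multiples were checked directly. Other pseudocounts (0.5, 5), other filters (none, or a mean of 50), TMM, quantile normalization, a replicate block, each library left out, and (chosen after seeing the data) a removed trend with length and GC content were further alternatives. Libraries of 1 group differed beyond sampling noise (chi-square of 2.39 to 5.21 per gene), so none was counted as a duplicate. The analysis was tested on simulated data.

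The members and lists were chosen with earlier results of these data known. Any member may be named. Values in every library are given, in each role group, for the member with the highest mean and up to 4 called members with the smallest adjusted p, and in each related list the 3 called genes with the smallest adjusted p are named. Windows and motifs were chosen after values were seen, and every motif searched is given. Promoter sequences are from RefSeq on GRCh38.p14.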

Additional observations from a re-analysis of the deposited data

Results flagged for a closer look

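In 5 of 130 groups of 4 libraries (3.85%) 1 library of a member stood far from the other 3, by Dixon's ratio of gap to range at the 95% level; chance flags about 1 in 20 groups. In the DTHIB group these were GCNT1 with 2255.76 normalized counts in replicate 1, above the others, FUT10 with 314.66 in replicate 1, below the others, B3GNT5 with 13.545 in replicate 1, above the others, and GALNT9 with 8.9765 in replicate 4, below the others. In the DMSO group it was FUT11 with 436.893 normalized counts in replicate 4, below the others. Except for FUT10, which was not called with all libraries, these members kept their calls without the library named.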

How the results depend on the processing

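Of the 34 called members, 23 kept call and direction in all 18 alternatives with a value, and 11 lost the call in at least 1 (B3GALT6, B3GNT4, CHST3, CHST11, CHST12, CHST15, FUT8, GALNT1, MGAT2, MGAT4B and MGAT5). The number of members called was 28 with DESeq2 on the recovered reads, 29 with quantile normalization or without a filter and 32 with edgeR. It was 35 with the length and GC trend removed and 28 to 35 with a library left out. The authors' deposited DESeq2 results also called 28 members, but not the same ones. They called MGAT4B and MGAT5, where DESeq2 on the recovered reads called B4GALT3 and CHST11. The median log2 fold change of the members was 0.0067 with quantile normalization, -0.0377 with edgeR, -0.0373 with DESeq2 and -0.0721 to -0.0435 with a library left out. Falls in N-glycan branching, 3 in all, numbered 0 without a filter and with DESeq2, 1 with quantile normalization and 0 to 2 with a library left out, where rises numbered 0 to 1. Falls in chondroitin sulfation, also 3, numbered 1 with quantile normalization and with DESeq2 and 0 to 3 with a library left out, where rises numbered 0 to 2. With a library left out, falls of mucin initiation numbered 1 to 3, rises of glycosphingolipid genes 0 to 1 and rises of sialic acid genes 1 to 2.

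Uncalled members that gained a call were B4GALT3 and B4GALT7 (higher) and GALNT14 (lower) with quantile normalization, B4GALT3 (higher), B4GALNT4, GALNT2 and MGAT1 (lower) with the length and GC trend removed, B4GALT3 with edgeR and DESeq2, and B4GALT3, CHST13, FUT10, GALNT3, GALNT11, GALNT14, MGAT4A, ST3GAL3 and ST3GAL5 with 1 or more single libraries left out.

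Signs turned with quantile normalization for MGAT4B (0.0289) and the uncalled B4GALNT1 (0.0324), B4GALNT4 (0.0444), CHST14 (0.0360), GALNT11 (0.0067), GALNT2 (0.0672) and MGAT1 (0.0662); with edgeR (0.0001) and DESeq2 (0.0006) for B4GALNT1; and with the length and GC trend removed for the uncalled GALNT3 (0.0041) and ST3GAL2 (-0.0232). With a library left out, uncalled B4GALNT1 ranged from -0.0571 to 0.0210, B4GALT4 from -0.0212 to 0.05 and HS3ST1 from -0.1302 to 0.0492. The cause was not tested.

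Same-numbered libraries had correlations of deviations from their group means of -0.0715, 0.0107, 0.0144 and 0.00179. Libraries with unlike numbers had -0.0727 to 0.0842. These correlations do not show whether the replicate numbers pair the libraries. With the replicate block 34 members were called, 11 that rose and 23 that fell, and 11058 of all genes; GALNT3 gained a call, giving 2 falls in mucin initiation, and MGAT2 lost one. At these depths, members near the limit of 10 normalized counts (GALNT9, B3GNT5, ST8SIA5) carry the largest counting error.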

Other observations

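The step between the first sugar of an O-glycan and its branching lies outside the family names used above, and its genes were looked up after their values were seen. C1GALT1, which makes the core 1 disaccharide, had 400.1, 378, 430.4 and 388 normalized counts in the DTHIB libraries, against 574, 539, 538 and 507 in the DMSO libraries. It fell without overlap (log2 fold change -0.43, limma adjusted p = 5.25e-06). Its dedicated chaperone C1GALT1C1 averaged 1156 ± 44.6 normalized counts in DTHIB and 1393 ± 54.7 in DMSO libraries and fell too (log2 fold change -0.27, limma adjusted p = 2.28e-05). These falls stand beside the rises of GCNT1 and ST3GAL1, which act on the core 1 product.

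Transcripts of 2 genes of sialic acid supply, also picked after their values were seen, were lower in the same libraries. CMAS, which makes the CMP-sialic acid donor, averaged 3025 ± 177 normalized counts in DTHIB and 3893 ± 75.8 in DMSO libraries (log2 fold change -0.37, limma adjusted p = 2.3e-07), and NANP, the phosphatase that releases free sialic acid, 652 ± 56.6 in DTHIB and 889 ± 44.4 in DMSO libraries (log2 fold change -0.45, limma adjusted p = 3.88e-06). Neither gene's groups overlapped. Other genes of this supply did not all go the same way. NANS fell by less (log2 fold change -0.10, limma adjusted p = 0.0289). SLC35A1, the transporter of the donor, rose (log2 fold change 0.55, limma adjusted p = 0.00416). GNE, at a mean of 5.52 normalized counts, was not tested. Sugar and donor levels were not measured.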
